A study of Homo sapiens with 14 samples.

Results

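The regions described here are the distal naïve-only BAF regions with BRM. These stretches of chromatin had peaks of the BAF remodelling complex called in naïve human embryonic stem cells (hESCs) but no matching peak in primed ones. All lay away from promoters and also held a peak of the ATPase BRM. They were found in chromatin immunoprecipitation and sequencing (ChIP-seq) peak lists of WIBR3, an established hESC line, grown either as naïve cells in 5i/L/A medium or as primed cells in conventional medium. Both states were kept on inactivated mouse embryonic fibroblast feeders, the labels give no treatment besides the medium, and the 4 antibodies recognised BRG1, BAF155, BRM and SOX2. Each list came from 1 library of 1 cell line, apart from SOX2, whose 2 lists per state had identical coordinates and were counted as 1 sample. Intervals below therefore cover counting error only.

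A BAF region was a BRG1 or BAF155 peak, or several of them merged where they touched, in 1 state on chromosomes 1 to 22 and X. The naïve lists gave 77164 regions and the primed lists 58508. On these chromosomes the BRG1 lists held 57853 naïve and 15611 primed peaks, and the BAF155 lists 62338 and 58352. The lack of a primed partner thus rests mostly on the primed BAF155 list. Of the naïve regions, 48305 (62.6%) had no primed partner, meaning that no primed region covered 25% of them or was covered to 25% by them. Among these naïve-only regions 41676 had a midpoint over 1 kb from every GENCODE transcript start, and 5904 of those (14.2%) met a naïve BRM peak at the same 25% overlap. These 5904 regions are the members. They make up 7.65% of the naïve BAF regions and 5.55% of the 106393 BAF regions of both states. The members were thus selected on naïve BRG1, BAF155 and BRM peaks and on the lack of a primed BRG1 or BAF155 peak, so those values are given as a description. Comparisons use the SOX2 lists and DNA sequence, which the selection did not use, and place in the genome, of which it used the distance from transcript starts. They set the members mostly against the 35772 distal naïve-only regions without a BRM peak.

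BAF, the mammalian SWI/SNF complex, moves or evicts nucleosomes with the energy of ATP and so opens enhancers and promoters to transcription factors. Each complex holds a motor subunit, either BRG1 (SMARCA4) or BRM (SMARCA2), on a core that contains the scaffold BAF155 (SMARCC1). Naïve hESCs model the epiblast of the preimplantation blastocyst and primed hESCs a later epiblast. SOX2 is a pluripotency factor that binds DNA together with OCT4. The study found it bound in both states but proposes that in human cells it acts mainly in the primed one.

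The 4 members with the highest BRM fold show what such a region looks like. A fold is the authors' enrichment of a peak over the input library. The middle 200 bp of each are printed from hg38 on the plus strand, in lower case, with capitals where a letter pattern of 1 of 17 transcription factor families searched below occurred.
TESMIN intron, chr11:68714154-68714353: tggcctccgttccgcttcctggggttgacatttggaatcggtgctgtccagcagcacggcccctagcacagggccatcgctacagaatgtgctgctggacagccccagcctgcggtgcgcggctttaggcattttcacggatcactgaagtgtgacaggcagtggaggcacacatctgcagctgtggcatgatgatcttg
intergenic nearest NYAP2, chr2:226130300-226130499: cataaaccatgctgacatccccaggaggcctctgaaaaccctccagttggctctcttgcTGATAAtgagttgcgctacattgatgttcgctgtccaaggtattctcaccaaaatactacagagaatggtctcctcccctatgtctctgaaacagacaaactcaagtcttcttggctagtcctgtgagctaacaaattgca
BEND5 and AGBL4 intron, chr1:48753433-48753632: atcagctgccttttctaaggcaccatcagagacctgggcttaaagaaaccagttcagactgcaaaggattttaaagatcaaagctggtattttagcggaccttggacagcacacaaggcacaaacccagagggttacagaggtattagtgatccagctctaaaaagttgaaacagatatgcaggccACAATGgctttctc
DAO intron, chr12:108890295-108890494: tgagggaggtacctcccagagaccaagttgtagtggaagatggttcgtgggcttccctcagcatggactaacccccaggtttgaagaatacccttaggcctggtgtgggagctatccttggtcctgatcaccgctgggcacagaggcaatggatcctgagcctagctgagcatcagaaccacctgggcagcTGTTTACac
The TESMIN window held none of the 17 patterns. The capitals mark a GATA pattern in the window nearest NYAP2, a SOX core in the BEND5 window and a FOX pattern in the DAO window.

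The members with the highest naïve SOX2 fold differ from those in width and letters. The windows printed for them are centred on the SOX2 peak, because the region around SPIC is wide.
SPIC, chr12:101474188-101474387: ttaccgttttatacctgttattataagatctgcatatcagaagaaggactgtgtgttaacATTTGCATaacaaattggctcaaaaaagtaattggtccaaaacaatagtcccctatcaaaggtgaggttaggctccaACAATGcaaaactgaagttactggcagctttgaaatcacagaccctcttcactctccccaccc
PRKG1 intron, chr10:51730231-51730430: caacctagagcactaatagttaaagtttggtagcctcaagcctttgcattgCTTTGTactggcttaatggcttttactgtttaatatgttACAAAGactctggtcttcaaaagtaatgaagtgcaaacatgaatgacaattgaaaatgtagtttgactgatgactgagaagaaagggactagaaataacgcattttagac
The SPIC window carried the POU octamer, the binding letters of OCT4 and its relatives, and a SOX core. The PRKG1 window carried a pair of SOX cores and no octamer.

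The BRM fold of the members was close in its median to that of BRM peaks elsewhere, while the highest folds lay elsewhere. Over members it ranged from 1.54 to 6.57 with a median of 3.29, and the quartiles were 3.03 and 3.62. Counted by BRM peak, the median fold was 3.28 at members and 3.33 at common regions away from promoters. It was 3.28 at naïve-only promoters and 3.2 at common promoters. None of the 100 naïve BRM peaks with the highest fold lay at a member, whereas 71 lay at common regions away from promoters and 29 at common promoters. The highest BRM fold at common regions away from promoters was 11.4. The highest folds of the BRM list thus lay at regions occupied in both states.

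At the TESMIN member (TESMIN encodes a metallothionein-like protein of the testis), on chr11:68714058-68714448, the BRG1 fold was 4.63, the BAF155 fold 5.02 and the BRM fold 6.57. The region lay in an intron of the gene, 1.68 kb from the nearest protein-coding start. The second member, chr2:226130226-226130573, was intergenic, 547 kb from NYAP2, and had a BRM fold of 6.51. The next was a member in an intron shared by AGBL4 and BEND5, with a BRM fold of 6.46 and a BAF155 fold of 6.14. The DAO member, in an intron of the D-amino acid oxidase gene, had a BRM fold of 6.34. The next 4 members lay in an intron of CEACAM7 (6.23), in introns of ZIM2-AS1 and an unnamed gene 50.1 kb from ZNF835 (6.19), in introns of unnamed noncoding genes 261 kb from the PI3-kinase subunit gene PIK3R1 (6.15) and between genes 16.6 kb from MOSPD1 (6.13). All 8 were narrow, between 348 and 568 bp, had no SOX2 peak in either state, and held unique sequence in their middle 200 bp. At the MOSPD1 member the BAF155 fold, 8.83, was the highest of any member, and the BRG1 fold, 7.04, likewise.

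Most members carried both other subunits. A BRG1 and a BAF155 peak were present at 4987 members (84.5%), a BAF155 peak alone at 623 (10.6%) and a BRG1 peak alone at 294 (4.98%). Of the distal naïve-only regions without BRM, 11695 (32.7%) had both. The median BRG1 fold was 3.16 over the 5281 members with a BRG1 peak, against 2.87 at regions without BRM, and the median BAF155 fold was 3.17 against 2.84. The quartile ranges touched, as the BRG1 fold of the members had a lower quartile of 2.88 and that of the other regions an upper quartile of 3.12.

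**Figure D1:**
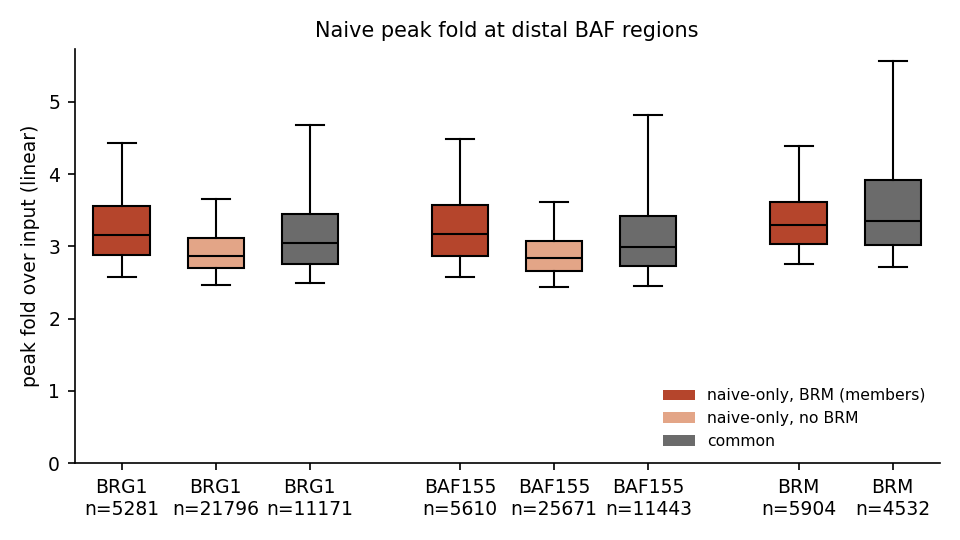
Fold over input of naïve BRG1, BAF155 and BRM peaks (linear y axis) at members (dark red), distal naïve-only regions without BRM (pale red) and common regions away from promoters (grey), with the number of regions with a peak under each box. Boxes show the quartiles and the median, whiskers the 5th and 95th percentiles, and the median BRG1 fold was 3.16 at members against 2.87 at regions without BRM.

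The share of distal naïve-only regions that qualified as members rose with the BRG1 or BAF155 fold. In the lowest of 10 equal groups by the higher of these folds 165 of 4168 regions had a BRM peak (3.96%), in group 5 339 of 4167 (8.14%) and in the highest 1802 of 4168 (43.2%). Within the members, the Spearman correlation across regions of the BRM fold was 0.53 with the BAF155 fold (5610 members) and 0.51 with the BRG1 fold (5281 members), while BRG1 and BAF155 correlated at 0.66 (4987 members). Members are not replicates, the folds come from 1 cell state, and these values are a description.

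BRM usually occupied part of a member. Of the 5904 members 5766 (97.7%) held 1 BRM peak, 130 held 2, and none held more than 3. BRM peaks covered a median of 43.5% of a member, with quartiles of 27.6% and 62.3%, and covered 106 members (1.80%) in full. The middle of the BRM peak lay a median of 116 bp from the middle of the member. In all, 6045 of the 17413 naïve BRM peaks (34.7%) lay at members.

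At the limits of the selection, the member with the smallest overlap, nearest EEFSEC, had 25.11% of itself or of the BRM peak covered, and the region just outside, nearest VPS13D, had 24.67%. A total of 61 regions without BRM touched a BRM peak below the limit. The member nearest a transcript start lay 1001 bp from one of SPTB, and the nearest region left out lay at 1000 bp. Among 35 members that touched a primed region, the largest overlap was 24.94%, near AUTS2.

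Few BAF regions met a primed BRM peak, in a state whose BRM list was short. The share was 0.0385% over all BAF regions, 0.00839% at distal naïve-only regions without BRM and 0.0754% at common regions away from promoters. The primed BRM list held 167 peaks on chromosomes 1 to 22 and X, without folds, and 6 members (0.102%) met one. All 6 were intergenic, lay between 183 and 750 kb from a protein-coding start, and had naïve BRM folds between 1.58 and 1.89, at the low end of the members. Over 50% of the middle window was multi-copy sequence, as defined below, at 3 of the 6. Against regions without BRM the odds ratio of members was 12.1 (3.03 to 48.5), which rests on 6 and 3 regions. Of the primed BRM peaks 21 of 167 overlapped a naïve BRM peak anywhere.

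Members were wide. Their median width was 744 bp, against 382 bp at distal naïve-only regions without BRM and 805 bp at common regions away from promoters. A wider region has more room to meet any other peak or motif, so width is set beside several of the comparisons that follow. The GC content of the middle 200 bp had a median of 49.5% at members, 49% at regions without BRM and 44.5% at primed-only regions away from promoters.

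CpG-rich regions, here at least 200 bp with at least 50% GC and a CpG ratio of at least 0.6 of expectation, were uncommon. They numbered 158 members (2.68%) against 4.54% of regions without BRM, an odds ratio of 0.579 (95% interval 0.490 to 0.683). The median CpG ratio was alike, 0.264 at members and 0.263 at regions without BRM. The ratio was taken over the whole region, and these shares were not compared at like width. Common regions away from promoters were CpG-rich in 11.7%, with an odds ratio of 0.208 (0.176 to 0.245) for members against them. Primed-only regions away from promoters were CpG-rich in 1.81%, with an odds ratio of 1.49 (1.24 to 1.79). The members were thus CpG-rich less often than the first and second of these classes and more often than the last. Over all BAF regions, promoters included, 16.6% were CpG-rich.

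Most members sat in introns or between genes. Midpoints fell in an intron for 3215 members (54.5%), between genes for 2388 (40.4%) and in an exon for 301 (5.10%). Over all BAF regions, promoters included, the shares were 54.1%, 31.7% and 14.2%. Common regions away from promoters were in introns in 54.4%, so the intron share of the members was not particular to them. Regions without BRM were in introns more often, 57.1%, and the odds ratio of 0.898 (0.850 to 0.949) excluded 1. It came to 0.947 (0.886 to 1.01) when only naïve regions with both a BRG1 and a BAF155 peak were taken. The intergenic share was correspondingly higher at members, with an odds ratio of 1.13 (1.07 to 1.19).

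The frequency of BRM among distal naïve-only regions fell with distance from transcript starts. Between 1 and 5 kb from the nearest transcript start 1982 of 13183 regions were members (15%, exact 95% interval 14.4 to 15.7). The share was 14.5% between 5 and 20 kb, 13.3% between 20 and 50 kb and 10.9% between 50 and 100 kb. Beyond 100 kb it was 82 of 948 (8.65%, 6.94 to 10.6). The intervals of the nearest and farthest groups did not overlap, while those of the first 2 groups did.

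Chromosomes differed in the same measure. On chromosome 19, the gene-dense home of zinc finger gene clusters, 506 of 2730 distal naïve-only regions were members (18.5%, 17.1 to 20.0), a density of 8.63 members per Mb. Chromosome 20 followed with 17.9% (15.9 to 20.0). On the X chromosome 95 of 1008 were members (9.42%, 7.69 to 11.4), or 0.609 per Mb. The remaining chromosomes lay between 11.2% (chromosome 5) and 15.7% (chromosome 16). The X chromosome interval lay below those of chromosomes 19 and 20.

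Members often had company. The values on neighbours come from the same BRG1 and BAF155 lists as the selection and are a description. Another naïve BAF region lay within 10 kb of 4477 members (75.8%) and of 65.9% of regions without BRM, an odds ratio of 1.62. Within 5 groups of equal size by width it was 1.17, so the gap was narrower there. Primed regions lay within 2 kb of 766 members (13%) and of 13.4% of the regions without BRM, after a selection that had removed primed overlap from both classes.

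Chains of members were short. With gaps of at most 10 kb the 5904 members formed 5173 runs, of which 4604 held a single member, and 1300 members (22%) shared a run with another. The longest run had 7 members over 32 kb of chromosome 20, with no protein-coding start within 20 kb. A run of 6 lay between FOXP4 and MDFI on chromosome 6. A run of 5 covered 15.2 kb beside TFAP2C, which encodes a transcription factor of the naïve epiblast and trophoblast. Runs of 4 lay near MELK, TEAD4 and RPS3, among others.

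Naïve SOX2 met the members more often than distal naïve-only regions without BRM, and for primed SOX2 no such difference was detectable. A naïve SOX2 peak overlapped 252 of 5904 members (4.27%, 3.77 to 4.82) and 334 of 35772 regions without BRM (0.934%, 0.837 to 1.04), an odds ratio of 4.73 (4.01 to 5.58). A primed SOX2 peak overlapped 23 members (0.390%, 0.247 to 0.584) and 0.444% of the other regions, an odds ratio of 0.876 (0.565 to 1.36). Over all 106393 BAF regions, promoters included, the share was 1.71% for naïve SOX2 and 7.68% for primed SOX2. The primed SOX2 list was the longer, with 9290 peaks against 1940 on these chromosomes. Only 4 members had a SOX2 peak of both states.

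The size of the naïve SOX2 difference depended on how strong and how wide the compared regions were. Within 5 groups by width the odds ratio was 2.69 (2.24 to 3.22), and within 5 groups by naïve BAF fold 3.63 (3.03 to 4.34). Among regions with both BRG1 and BAF155 it was 2.27 (1.90 to 2.70). With 50% of both regions covered it was 1.81 (1.19 to 2.77). With peaks of −log10 q of at least 3 in every list that gives q, 64 of 1266 members (5.06%) and 464 of 9942 other regions (4.67%) had a SOX2 peak, and the odds ratio of 1.09 (0.832 to 1.42) no longer excluded 1. That threshold also redrew the classes, since regions whose primed or BRM peak fell below it became naïve-only or without BRM, and the other class with SOX2 grew from 334 to 464 regions. The value of 1.09 therefore compares other classes than the value of 4.73.

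Against common regions away from promoters the members had less SOX2. These had a naïve SOX2 peak in 7.37% of 13256 cases, an odds ratio of 0.560 (0.486 to 0.646) for members against them, or 0.684 with an interval that included 1 at an overlap of 50% of both. In the primed state 21.6% of common regions and 14.1% of the 25897 primed-only regions away from promoters had a SOX2 peak. Per Mb covered, naïve SOX2 peaks numbered 45 at members, 19.2 at regions without BRM and 71.3 at common regions away from promoters.

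**Figure D2:**
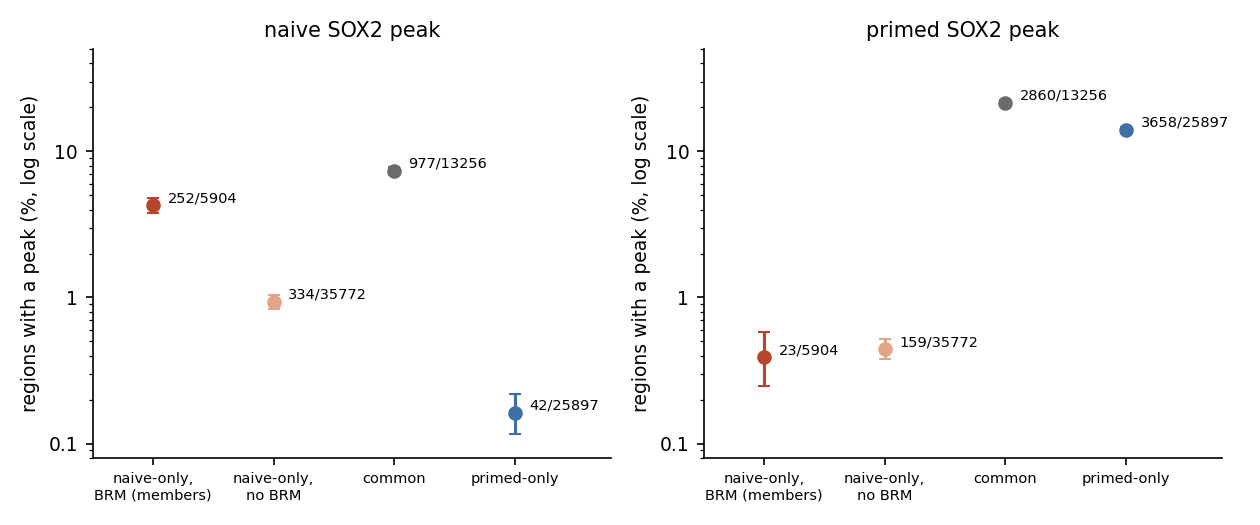
Share of regions with a SOX2 peak (percent, log y axis) in naïve (left) and primed (right) cells for members, distal naïve-only regions without BRM, and common and primed-only regions away from promoters, with counts beside each point. Bars are exact 95% intervals, and the members lie at 4.27% in naïve and 0.39% in primed cells.

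The 252 members held 256 naïve SOX2 peaks, 13.2% of the list. Of these peaks 225 (87.9%) also overlapped the BRM peak itself, and 4 (1.56%) overlapped a primed SOX2 peak. Over the whole naïve SOX2 list, 930 of 1940 peaks (47.9%) overlapped a primed one. Naïve SOX2 peaks at members thus rarely lay where primed cells had one. The selection had removed regions with a primed BAF partner, and primed SOX2 was rare at naïve-only regions in general. It met 0.444% of those without BRM, against 21.6% of common regions away from promoters. The low overlap is therefore a description and not a trait particular to the members. The SOX2 fold had a median of 7.06 at members and 7.26 over the list.

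The strongest SOX2 peak at a member lay 1.16 kb from a start of SPIC, a gene of the ETS factor family. That member, chr12:101473084-101475277, was 2194 bp wide with a naïve SOX2 fold of 30.6, a BRM fold of 2.91 and a BRG1 fold of 2.88. SOX2 peaks were called as narrow and BAF subunit peaks as broad, over different inputs, so SOX2 folds are not compared with the others. Next came a member in an intron of PRKG1, a cGMP-dependent kinase gene, with a SOX2 fold of 18.8 and a BRM fold of 3.25. A member in an intron of PIK3R4 had 17.1 and 4.60. Members 103 kb from CFAP95 and 27.1 kb from NINJ2 both had a SOX2 fold of 16.7, and the one near NINJ2 was the only one of the 5 with a primed SOX2 peak, of fold 7.84. The BRM folds of these 5 members ran from 2.91 to 4.60.

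Members with SOX2 were wider, with a median of 1240 bp against 724 bp without, and had a lower median BRM fold, 3.08 against 3.30. The median BRG1 fold was 3.18 against 3.16. When members were split into 5 groups by BRM fold, a naïve SOX2 peak was present at 99 of 1181 in the lowest (8.38%, 6.87 to 10.1), 4.23% and 4.32% in the next ones, 2.88% in the fourth and 18 of 1181 in the highest (1.52%, 0.906 to 2.40). The odds ratio of the highest against the lowest group was 0.169 (0.102 to 0.281). The median width fell over the same groups from 969 to 509 bp, and within 5 groups by width the odds ratio was 0.308 (0.183 to 0.516). Members of high BRM fold therefore had SOX2 less often within groups of similar width as well.

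Other features also differed between the ends of that series. A naïve BAF neighbour within 10 kb was present for 84.8% of the lowest group and 60.1% of the highest, an odds ratio of 0.271, or 0.410 within width groups. The TFAP2 pattern, described below, occurred in 7.37% of the lowest group and in 10.8%, 12.8%, 12.4% and 12% of the next ones, without a rise after the third. The odds ratio of the highest against the lowest group was 1.72 (1.30 to 2.27), which was 0.815 with peaks of −log10 q of at least 3. The POU octamer went the other way, with 0.367 (0.202 to 0.668). Across regions the BRM fold correlated with width at a Spearman coefficient of -0.27 and with GC content at 0.12.

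**Figure D3:**
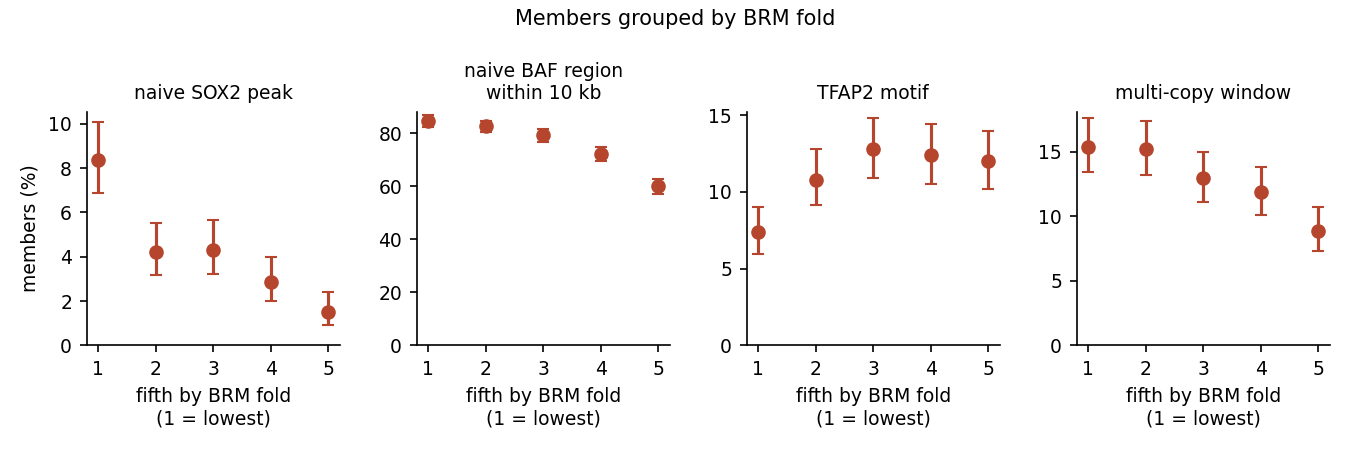
Members split into 5 groups by BRM fold (x axis, 1 lowest, 1180 or 1181 members each) and the percentage of each group with a naïve SOX2 peak, a naïve BAF region within 10 kb, a TFAP2 pattern or a middle window of multi-copy sequence. Bars are exact 95% intervals, and the share with a SOX2 peak falls from 8.38% to 1.52%.

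To describe the DNA under the members, 17 letter patterns were searched on both strands of the middle 200 bp. The patterns, with N for any base, were GGGCGGGGC for KLF together with its variants GGGCGTGGC, GGGTGGGGC and GGGTGTGGC, GCCNNNGGC for TFAP2, CAAGGTCA for NR5A/ESRR, TTCCNGGAA for STAT, GGTCTCTAA for PRDM14 and ATGCAAAT for POU. The SOX core was searched as CATTGT and, in its other common spelling, as CTTTGT, the FOX pattern as TATTTAC and, in its other common spelling, as TGTTTAC, and the GATA pattern as AGATAA and, in its other common spelling, as TGATAA. Shorter patterns were GGAATG for the TEAD family, CCTGCTG for the ZIC family, GGATTA for the OTX family, CCGGAAG for the ETS family and TGANTCA for the AP-1 family. The remaining ones, of TFCP2L1, CTCF and the OCT4-SOX2 composite, were longer. The composite contains the SOX core, so its matches count under both. A match is a run of letters and not a bound site.

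KLF and TFAP2 patterns, of families with known naïve epiblast members such as KLF17 and TFAP2C, were more frequent in the members than in the DNA around them. KLF letters occurred in 347 of 5904 members (5.88%) and in 1.41% of windows 2 kb to either side, an odds ratio of 4.35 (3.61 to 5.25). TFAP2 letters occurred in 654 (11.1%) against 4.73%, or 2.51 (2.23 to 2.82). Over all BAF regions the shares were 5.48% for KLF and 11.6% for TFAP2. They were 24.8% for SOX, 12.3% for OTX, 9.32% for ZIC, 8.18% for AP-1 and 6.11% for FOX. TFCP2L1 stood at 5.21%, POU at 2.87%, NR5A/ESRR at 1.3%, CTCF at 1.25% and PRDM14 at 0.345%. Of the 17 patterns 12 were more frequent in the members than in the flanking windows with an interval above 1, and 1, OTX, was less frequent, with 17.0% against 20.3% and an odds ratio of 0.803 (0.741 to 0.871). The CTCF pattern, of the insulator protein, was rare but stood out locally, with 39 members (0.661%) against 0.0847% of flanks. Over all BAF regions it stood at 1.25% against 0.105% of flanks, KLF at 5.48% against 1.28% and TFAP2 at 11.6% against 4.65%. The local rise of these patterns was thus not particular to the members.

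Against primed-only regions away from promoters the members had another profile. The KLF pattern was present in 1.17% of those, an odds ratio of 5.27 (4.51 to 6.17) for members against them, and TFAP2 in 5.38%, or 2.19 (1.99 to 2.42). PRDM14 letters gave 2.93 (1.87 to 4.59) and NR5A/ESRR letters 1.91 (1.53 to 2.39). In the other direction, the ZIC pattern gave 0.481 (0.433 to 0.534), with 7.16% of members and 13.8% of primed-only regions. The SOX core gave 0.514 (0.481 to 0.549), FOX letters 0.448 (0.394 to 0.509) and AP-1 letters 0.521 (0.469 to 0.578). ZIC, SOX, FOX and AP-1 patterns were thus less frequent, and KLF and TFAP2 more frequent, in members than in primed-only regions away from promoters. Windows 2 kb away differed in the same direction for these patterns, with 1.41% against 0.846% for KLF and 4.40% against 4.58% for ZIC. Median GC content was 49.5% at members and 44.5% at primed-only regions, and these values were not compared at like GC. The patterns named here are a choice from the 17.

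Differences from naïve-only regions without BRM were small. Of 17 patterns 4 had an unadjusted interval without 1. KLF letters occurred in 5.88% against 4.84%, an odds ratio of 1.23 (1.09 to 1.38), and TFAP2 letters in 11.1% against 9.75%, or 1.15 (1.06 to 1.26). POU letters occurred in 2.35% against 3.10%, or 0.754 (0.630 to 0.901), and FOX letters in 4.71% against 5.61%, or 0.832 (0.731 to 0.946). Within groups of similar naïve BAF fold the KLF value was 1.05 (0.929 to 1.19) and the TFAP2 value 0.962 (0.876 to 1.06), and within groups of similar width the POU value was 0.913 (0.757 to 1.10). The CTCF pattern was at 0.725 (0.520 to 1.01) as compared and at 1.60 (1.14 to 2.26) within width groups. The FOX value within width groups was 0.876 (0.765 to 1.00). The other control of each pattern kept its difference. Within width groups the KLF value was 1.43 (1.26 to 1.62) and the TFAP2 value 1.41 (1.28 to 1.54), and within groups by BAF fold the POU value was 0.676 (0.562 to 0.814) and the FOX value 0.814 (0.712 to 0.931). KLF and TFAP2 thus differed at like width but not detectably at like BAF fold, and POU and FOX the reverse.

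**Figure D4:**
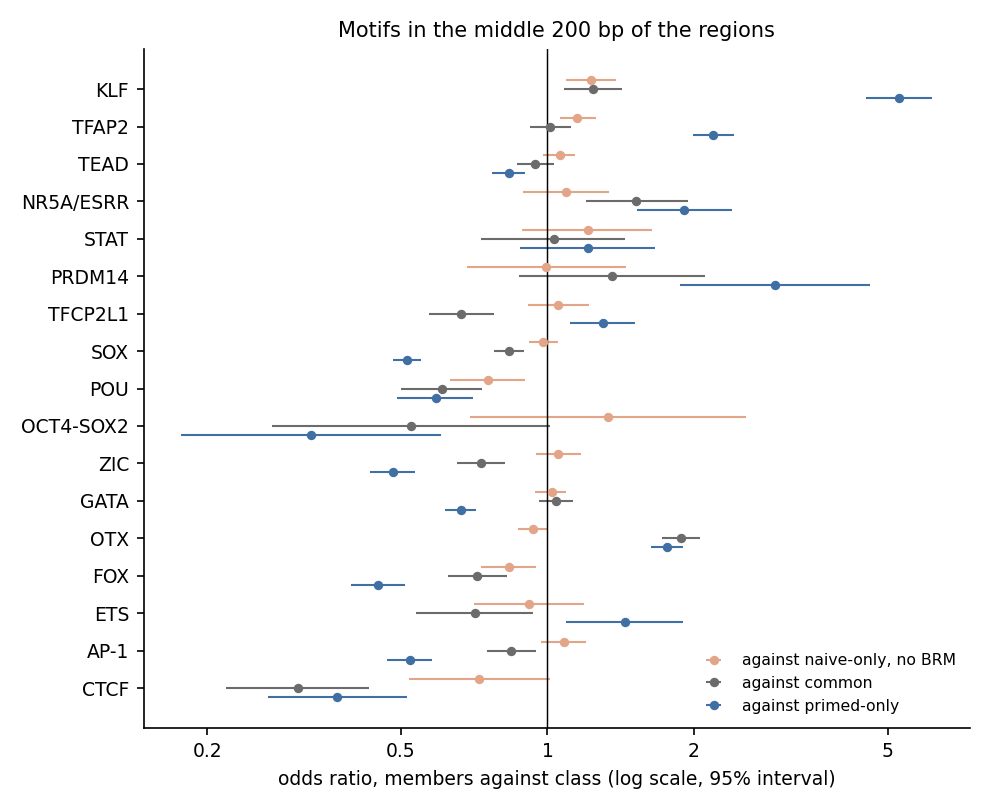
Odds ratio of each of 17 motif patterns in the middle 200 bp of members against naïve-only regions without BRM (pale red), common regions (grey) and primed-only regions (blue), all away from promoters, on a log x axis with 95% intervals. The KLF pattern lies at 1.23, 1.24 and 5.27, while most values against regions without BRM lie near 1.

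Against common regions away from promoters, the members had the KLF pattern slightly more often, at 1.24 (1.08 to 1.42), while the TFAP2 value was 1.01 (0.920 to 1.12). The POU octamer was less frequent, at 0.606 (0.501 to 0.733), as were TFCP2L1 letters, at 0.665 (0.570 to 0.776), and CTCF letters, at 0.307 (0.219 to 0.430). OTX letters were more frequent, at 1.88 (1.72 to 2.06), in windows whose flanks held them more often still.

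Members with SOX2 held its letters more often than members without. The SOX core was present in the middle window of 98 of 252 members with a naïve SOX2 peak (38.9%) and of 22.1% of members without, an odds ratio of 2.24 (1.73 to 2.91). The octamer was present in 16 (6.35%) against 2.18%, or 3.05 (1.78 to 5.21), and 1.73 (0.398 to 7.52) with −log10 q of at least 3. TFAP2 letters were less frequent there, 6.75% against 11.3%, or 0.570 (0.346 to 0.938), but this interval included 1 with 1 region per class in 10 kb, at 0.624 (0.378 to 1.03), beyond 5 kb from every start, at 0.615 (0.339 to 1.12), and with −log10 q of at least 3, at 0.888 (0.398 to 1.98). At an overlap of 50% of both it was 1.69 (0.628 to 4.56). In windows centred on the SOX2 peaks, 142 of 256 peaks at members held a SOX core (55.5%), against 59.6% of the 1684 naïve SOX2 peaks elsewhere, an odds ratio of 0.844 (0.647 to 1.10). KLF letters were more frequent in the peaks at members, with 23 of 256 (8.98%) against 2.73% elsewhere, or 3.52 (2.09 to 5.91). With only peaks of −log10 q of at least 3 the KLF value was 2.40 (0.929 to 6.17). In the middle window, members with a SOX2 peak did not detectably differ from members without in KLF letters, 5.16% against 5.91%, or 0.866 (0.490 to 1.53).

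Sequence that occurs in several copies was more frequent in the members than in common or primed-only regions. A window was called multi-copy when over 50% of its 32-base words occurred more than once on the chromosomes. That held for 760 members (12.9%), 15.6% of regions without BRM, 4.96% of common and 1.86% of primed-only regions away from promoters, and for 8.12% of all BAF regions. The odds ratio of members was 0.799 (0.737 to 0.867) against regions without BRM, 2.83 (2.54 to 3.16) against common and 7.81 (6.94 to 8.79) against primed-only regions. Short reads map less surely to such windows, and the part of this in the peak calls was not tested. Among members with SOX2, 50 of 252 (19.8%) were multi-copy and among those without 12.6%, or 1.72 (1.25 to 2.37). Without multi-copy windows the naïve SOX2 odds ratio of members against regions without BRM was 4.46 (3.71 to 5.37) and the KLF value 1.20 (1.06 to 1.36).

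Genes were linked to members by distance alone, as no expression was measured in these files. Of the members 3424 (58.0%) had a midpoint within 20 kb of a protein-coding transcript start, against 54.9% of regions without BRM. Of 19970 protein-coding genes 3732 (18.7%) had at least 1 member within 20 kb of one of their starts. For regions without BRM this background was 59% of genes, for common regions away from promoters 31.7% and for primed-only regions away from promoters 36.9%. Most of the 3732 genes, 2865, had 1 member, and 23 genes had 5 or more. Genes that are long or have several starts have more room to collect members, and neighbouring genes share them.

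RIN2, a regulator of the small GTPase RAB5, had 7 members, all in its introns, with BRM folds of 3.5, 3.06, 2.77, 3.90, 3.36, 4.62 and 2.97. Distances to its nearest start ran from 8.81 to 18.7 kb. BCAR3, an adaptor in integrin signalling, also had 7, with BRM folds from 3.04 to 4.42, 1 of them in an exon. It counted 9 naïve-only regions without BRM and 7 primed-only regions beside them, so both states occupied that locus at different places. DPRX, a homeobox gene of the early human embryo on chromosome 19, had 7 members with BRM folds between 2.76 and 3.58, and no primed-only region. ARID3A and SH3TC1 had 6 members each. CMIP, EGLN3, the oxygen-sensing prolyl hydroxylase gene, and MISP had 5 each, and the CMIP member at chr16:81502093-81503232 was the only one at these 8 genes with a SOX2 peak, of fold 11.9.

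Lists of genes were then counted, each against the 18.7% of all protein-coding genes. Of 26 genes of the naïve and preimplantation epiblast 13 (50%) had a member, as had 8 of 16 (50%) chromatin and DNA methylation enzymes. Members also lay near 33.3% of the genes of further lists, with 3 of 9 core pluripotency genes, 4 of 12 LIF and STAT3 pathway genes and 9 of 27 BAF subunit genes. For trophectoderm genes the count was 6 of 22 (27.3%) and for ribosomal protein genes 4 of 20 (20%). Primitive endoderm genes had 2 of 14 (14.3%), primed epiblast genes 3 of 23 (13.0%) and neuroectoderm genes 1 of 16 (6.25%). These lists were chosen with results of these data known, so the counts describe them and carry no test.

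The other classes give the contrast for the naïve list and the neuroectoderm list. Regions without BRM lay near 25 of the 26 naïve genes (96.2%, background 59%) and near 7 of 16 neuroectoderm genes (43.8%). Primed-only regions lay near 12 of 26 naïve genes (46.2%, background 36.9%) and near 14 of 16 neuroectoderm genes (87.5%). Common regions lay near 61.5% of the former and 75% of the latter, against 31.7% of all genes.

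Among the naïve genes, FGF4, which encodes a growth factor of the inner cell mass, had the most members, 3, with BRM folds of 3.02, 2.98 and 3.25 and BRG1 folds of 2.62, 3.20 and 3.40. All 3 were intergenic, 7.78, 3.58 and 12.7 kb from its start, and none had a SOX2 peak. TFCP2L1, a transcription factor gene of the naïve network, had 2, with BRM folds of 3.22 and 3.11, the first in its own intron with a BRG1 fold of 4.81. DNMT3L, the cofactor of the de novo DNA methyltransferases, had 2, of BRM fold 2.64 and 3.38, 5.83 and 7.11 kb from its start. TFAP2C had 2 within 20 kb, of BRM fold 3.13 and 3.52, and the rest of its run of 5 lay beyond that limit.

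KLF17 and NLRP7 were the naïve list genes whose member also had a SOX2 peak. The KLF17 member, chr1:44106715-44108252, had folds of 3.88 for BRG1, 3.5 for BAF155, 3.75 for BRM and 11.6 for naïve SOX2, and KLF17 had no other distal BAF region of any class within 20 kb. The NLRP7 member, chr19:54949233-54955007, lay in an intron, with a BRM fold of 3.00 and a SOX2 fold of 7.47. Genes of the list without a member included KLF4, NANOG, DPPA2 and SUSD2, each with naïve-only regions without BRM nearby.

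**Figure D5:**
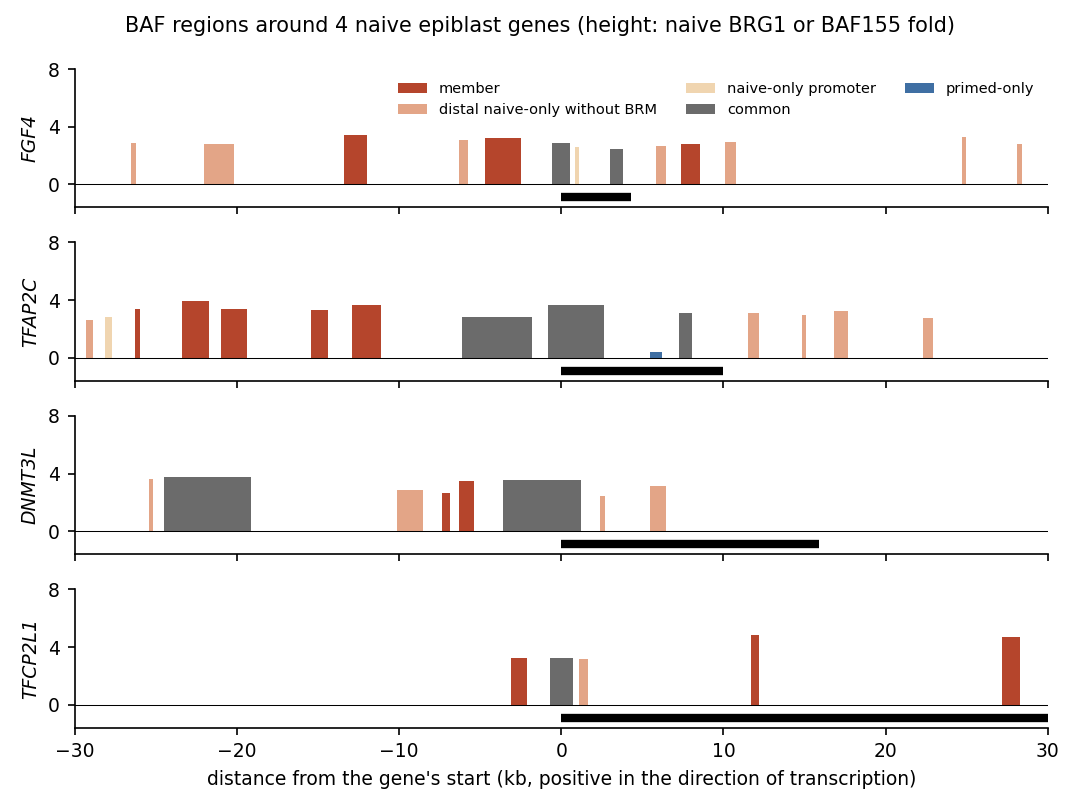
BAF regions within 30 kb of the annotated start of FGF4, TFAP2C, DNMT3L and TFCP2L1, by distance in kb in the direction of transcription (x axis), with the height giving the higher of the naïve BRG1 and BAF155 folds and black bars the gene body. Dark red bars are members, of which FGF4 has 3 and the flank upstream of TFAP2C a run of 5, pale bars other naïve-only regions and grey bars common ones, while primed-only regions without a naïve fold are drawn as low blue bars.

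In the trophectoderm list, ELF3 had 3 members with BRM folds of 3.03, 3.6 and 3.05, and GATA2 had 2, of 3.12 and 3.73. TEAD4, the factor that starts the trophectoderm programme, had 2 in its intron, of 3.52 and 2.83. CGA, the common subunit of glycoprotein hormones, had a single member of BRM fold 4.38, with no BRG1 peak, and no other distal BAF region within 20 kb. GATA6, a primitive endoderm factor, had 2, of which the one in its own intron, chr18:22182515-22185441, had a naïve SOX2 fold of 5.22.

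Among core pluripotency genes SOX2, LIN28A and MYCN had 1 member each. The SOX2 gene member lay in an intron of SOX2-OT, 16.3 kb from the start of SOX2, with a BRM fold of 3.23. In the primed epiblast list, TCF7L1, a WNT pathway repressor, had a member in its intron with folds of 5.00 for BRG1 and 4.30 for BRM. OTX2 and SALL2 had 1 each. NES, an intermediate filament gene of neural progenitors, was the neuroectoderm gene with a member, of BRM fold 3.59.

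DNMT1, which maintains DNA methylation at replication, had 4 members, the most of any listed gene. Their BRM folds were 3.33, 3.43, 4.81 and 3.22, a pair in its introns and a pair between genes, and the strongest lay 8.86 kb from a start. UHRF1, its partner in reading hemimethylated DNA, had 3, of 3.37, 3.51 and 3.11. TET2, which oxidises methylated cytosine, had 2, and DNMT3A and TET1 had 1 each. DNMT3B had none, beside 6 naïve-only regions without BRM.

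Genes of the complex itself were also near members. SMARCA4, which encodes BRG1, had a member in its intron 2.18 kb from a start, with a BRM fold of 3.44 and a BRG1 fold of 2.95. SMARCA2, which encodes BRM, had one in its intron 16.1 kb from a start, of BRM fold 3.17. SMARCC1, encoding BAF155, had one 2.88 kb from its start, of 3.04. SMARCB1, a core subunit, and BICRA, a subunit of the noncanonical complex, had 2 each. ARID1B and DPF2 had 1 each, of 3.91 and 3.74.

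In the LIF and STAT3 pathway, which promotes the naïve state, the receptor LIFR had a member in its intron of BRM fold 3.62. The transcription factor STAT3 had one of 3.31, the feedback inhibitor SOCS3 one of 3.28 and the kinase PIM1 one of 2.73. None of the 4 had a SOX2 peak, and IL6ST and JAK1 had no member. Of the ribosomal protein genes, RPS3 and RPS14 had 2 members each, of BRM fold 3.03 to 3.24. RPL8 had 1 of 2.80, with a naïve SOX2 fold of 10.1.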

How the data were processed

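Peaks were deposited in hg38. The authors trimmed the reads, mapped them with Bowtie2 2.3.4, removed duplicates and called peaks with MACS2 over input, broad for BAF subunits and narrow for SOX2. Where a deposited list has values, it holds each peak's fold over input (a ratio), −log10 of its p and q values and a score, which MACS2 derives from q and which was not used further. Primed BRM and the repeat SOX2 lists hold coordinates without values. The peak lists hold no read depth, the read totals given with the study were not used here, and an absent peak only means that none was called. The 4 input libraries were not analysed here.

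BRG1 and BAF155 peaks were merged per state, and overlap meant 25% of either region covered. Transcript starts, exons and introns came from GENCODE release 44. Shares carry exact Clopper-Pearson 95% intervals. Odds ratios between classes carry 95% intervals by the Woolf method, or by Mantel-Haenszel within 5 groups, computed in Python 3.11.15 with pandas 2.3.3 and scipy 1.17.1 and tested on simulated data. Regions are not replicates, so no p-value was computed, and intervals over the 17 motifs are unadjusted. Named members were the 8 of highest BRM fold, the 5 of highest SOX2 fold, the 8 genes with most members, up to 4 genes per list and those at each threshold. Further list genes were named after their values were seen. Members and lists were chosen with earlier results of these data known.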

Additional observations from a re-analysis of the deposited data

How the results depend on the processing

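Each condition is 1 library of 1 cell line, so no spread between cultures could be measured and no library could be left out. No paired analysis was possible because the repeat SOX2 lists hold the same coordinates and every other group has 1 sample. The comparisons without regions of over 50% soft-masked repeats were not run, since the reference is all in capitals; the multi-copy one and the window centred on the strongest peak were chosen after seeing the data. Of 429 alternative values over 45 results, 366 counted as unchanged. Their interval excluded 1 on the same side as the main one, or both intervals included 1, or a count stayed within 1.5 times. Where both intervals included 1, a change of direction also counted as unchanged and is not marked as turned below. Values below are odds ratios unless counts are named, and the cause of each shift was not tested. Counts of members fell to 1266 with −log10 q of at least 3, 2833 with 50% of both regions covered and 3922 beyond 5 kb from every start, those of genes to 984, 2004 and 1996, and those of naïve list genes to 4 and 7 for the first and second of these; fewer peaks or regions qualify there by construction.

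Values for a primed region within 2 kb rest on lists the selection used and are a description. With −log10 q of at least 3, which also redraws the classes compared, against regions without BRM, naïve SOX2 was at 1.09, KLF 1.02, TFAP2 0.969 (turned), SOX 0.86 and introns 0.958. In the same setting the highest against the lowest group by BRM fold gave TFAP2 0.815 (turned) and POU 0.711, members with against without SOX2 gave POU 1.73 and TFAP2 0.888, and SOX2 peaks at members against elsewhere gave KLF 2.4 and POU 0.292. With 50% of both regions covered, against regions without BRM, POU was at 0.819, OTX 0.737, TEAD 1.12, TFCP2L1 1.26, ZIC 1.25 and a primed region within 2 kb 1.24 (turned). There naïve SOX2 was at 0.684 against common and 1.32 against primed-only regions and at 0.058 between the highest and lowest group by BRM fold, with SOX2 at members giving POU 3.51 and TFAP2 1.69 (turned), and KLF at SOX2 peaks 2.51. The remaining values are all against regions without BRM unless stated. Within groups by width AP-1 was at 1.24, CTCF 1.6 (turned), FOX 0.876, OTX 0.784, POU 0.913, STAT 1.4, TEAD 1.2, ZIC 1.23 and a primed region within 2 kb 0.89. Within groups by naïve BAF fold KLF was at 1.05, OTX 1.1 (turned), TFAP2 0.962 (turned) and a primed region within 2 kb 1.16 (turned). Within groups by GC, CTCF was at 0.715 and OTX 0.913. With both BRG1 and BAF155, KLF was at 1.06, SOX 0.913, TFAP2 0.99 (turned) and introns 0.947. Windows of 400 bp gave AP-1 1.11 and TEAD 1.11, and those at the strongest peak AP-1 1.14, OTX 0.9, STAT 1.36, TEAD 1.11 and ZIC 1.13. With 1 region per class in 10 kb CTCF was at 0.668 and TFAP2 at 0.624 between members with and without SOX2. Beyond 5 kb TFAP2 was at 1.09, at 1.39 between the highest and lowest group by BRM fold and at 0.615 between members with and without SOX2. Without multi-copy windows SOX was at 0.924.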
